A study of Mus musculus with 4 samples.

Results

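The 9 genes described here take part in blood clotting, in plasminogen activation and in the restraint of serine proteases. They are F13a1, F7 and F10 (clotting factors), Thbd (an anticoagulant receptor), Plau and Plaur (the urokinase system), Spint1 and Spint2 (Kunitz-type inhibitors) and Corin (a membrane serine protease). They were chosen by symbol for these roles, with the siHells and siControl levels of the same libraries already known, so their differences between the groups are given as a description. Where the text says that one of them passed the threshold used for all genes, that is a count and supports nothing. All 9 were found among the 17194 gene symbols of the count table. Both groups were primary mouse macrophages grown from bone marrow and exposed to RANKL for 2 days, the start of osteoclast formation. One group was labelled siHells, treated with siRNA against the chromatin remodeller Hells (2 libraries), and the other siControl (2 libraries). The labels used here do not give the strain, sex or age of the mice, or whether the libraries came from separate animals or cultures. Each p-value therefore reflects the spread among these libraries alone, which may be technical.

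Clotting ends when thrombin turns fibrinogen into fibrin and factor XIII, a transglutaminase, cross-links the strands. Upstream, tissue factor binds factor VII, and the pair activates factor X, which makes thrombin. Thrombomodulin on the cell surface binds thrombin and turns it toward activating protein C, which stops the cascade. Fibrin is removed by plasmin, which urokinase makes from plasminogen while held by its receptor. Hepatocytes make most clotting factors, but the A subunit of factor XIII comes chiefly from cells of the macrophage and platelet lineages, and macrophages also make factors VII and X, thrombomodulin and urokinase. Kunitz-type inhibitors block trypsin-like proteases by placing a loop in the active site.

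Total counts lay between 48873635 and 55642819 per library. Hells itself had 823 and 785 counts in the siHells libraries, against 1613 and 1501 in siControl, or a log2 fold change (log2FC) of -0.99 with an SE of 0.068 (edgeR quasi-likelihood test, Benjamini-Hochberg adjusted p = 5.96e-09). Over all 15651 genes tested, 58.5% passed the adjusted p threshold of 0.05 and the CPM of the groups did not overlap in 78.5%. By direction, 29.0% were higher and 29.5% lower in siHells, and the number called in any list stands beside these shares. Of the 9 genes, 8 passed that threshold (4 higher and 4 lower in siHells), all but Spint1, and 9 had groups that did not overlap. Because the genes were chosen with this contrast known, nothing is read from those counts. Macrophage markers were abundant in every library, with 7 of 8 higher in siHells, while all 9 osteoclast markers were lower there. Of 6 neutrophil markers 4 were lower, and of 3 mast cell markers 1 was higher and 1 lower. The higher mast cell marker, Cpa3, had 18 and 13 counts in siHells against 3 and 7 in siControl. It passed the low-count filter through its siHells level. The macrophage markers summed to 23955 and 23268 CPM in siHells against 15598 and 15740 CPM in siControl. The osteoclast markers summed to 1430 and 1392 CPM in siHells against 8622 and 8687 CPM in siControl. In bulk RNA, fewer cells of a type and less RNA per cell cannot be told apart.

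Levels of the 9 genes are CPM, counts scaled to library size with TMM factors, and fold changes are siHells over siControl. The plot of CPM by library shows every value.

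**Figure D1:**
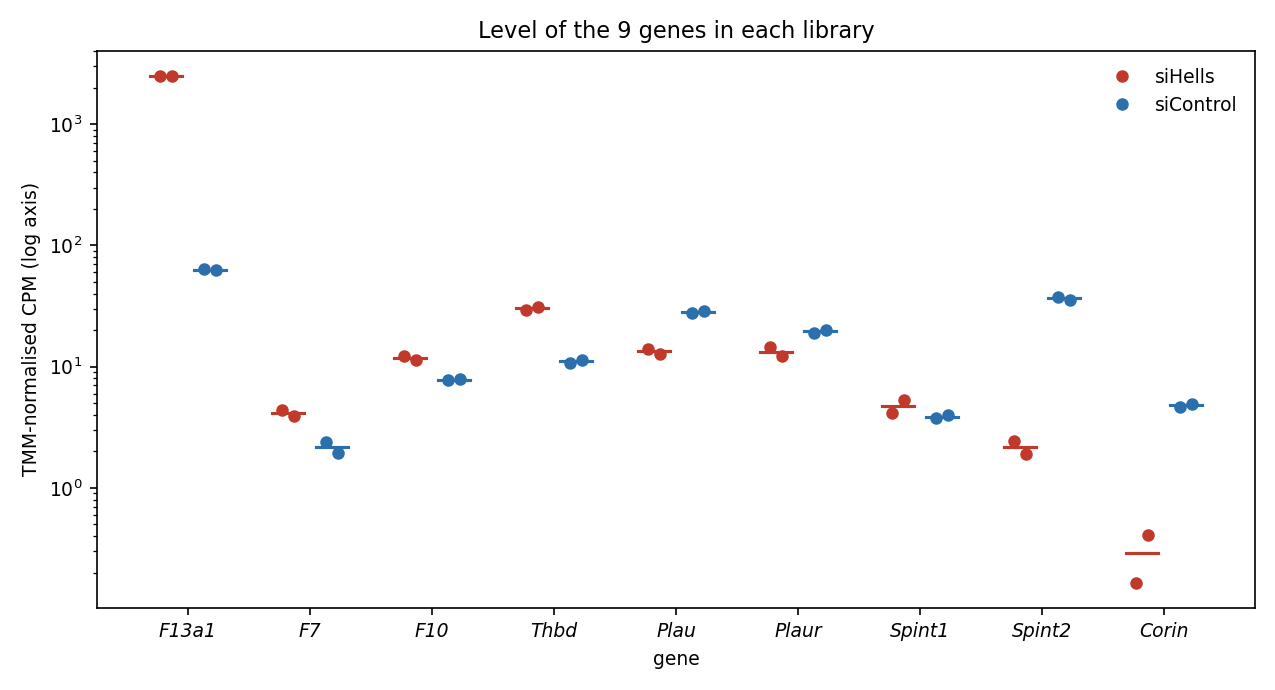
TMM-normalised CPM (log axis) of each gene in the 2 siHells libraries (red, left) and the 2 siControl libraries (blue, right); points are libraries and lines are group means. F13a1 lies at 2492 and 2482 CPM in siHells and at 63.4 and 62.5 CPM in siControl, Spint2 and Corin lie far lower in siHells, and the Corin points of siHells stand apart from each other.

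The promoter sequences of the genes with the largest differences are shown because Hells is known for its part in DNA methylation, which acts at CpG dinucleotides. Each is the 300 bases from 250 before to 50 after a transcription start, from RefSeq on GRCm38.p6, 5′ to 3′ on the gene's strand, with every CpG in capitals. F13a1 has starts listed at chr13:37050195-37050494 and at chr13:37049164-37049463, both on the minus strand, Spint2 at chr7:29281928-29282227 on the minus strand, and Corin at chr5:72504491-72504790 on the minus strand.
F13a1, outer start: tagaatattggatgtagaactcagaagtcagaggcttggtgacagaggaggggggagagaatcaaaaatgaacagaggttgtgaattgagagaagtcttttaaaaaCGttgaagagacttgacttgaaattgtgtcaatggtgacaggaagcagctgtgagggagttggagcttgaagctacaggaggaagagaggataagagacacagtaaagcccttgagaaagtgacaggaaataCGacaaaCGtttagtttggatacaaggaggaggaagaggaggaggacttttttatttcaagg
F13a1, inner start: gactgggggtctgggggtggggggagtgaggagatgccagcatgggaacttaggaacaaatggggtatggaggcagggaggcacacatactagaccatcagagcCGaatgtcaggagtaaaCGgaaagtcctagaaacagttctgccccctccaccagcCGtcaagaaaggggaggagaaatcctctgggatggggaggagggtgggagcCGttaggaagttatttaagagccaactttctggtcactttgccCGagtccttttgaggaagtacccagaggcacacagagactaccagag
Spint2: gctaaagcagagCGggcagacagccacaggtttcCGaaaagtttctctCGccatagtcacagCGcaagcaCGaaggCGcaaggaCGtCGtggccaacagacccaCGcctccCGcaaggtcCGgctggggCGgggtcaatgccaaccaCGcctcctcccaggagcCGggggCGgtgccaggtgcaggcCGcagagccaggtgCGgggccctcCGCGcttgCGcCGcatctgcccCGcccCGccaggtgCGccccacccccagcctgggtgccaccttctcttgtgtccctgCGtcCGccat
Corin: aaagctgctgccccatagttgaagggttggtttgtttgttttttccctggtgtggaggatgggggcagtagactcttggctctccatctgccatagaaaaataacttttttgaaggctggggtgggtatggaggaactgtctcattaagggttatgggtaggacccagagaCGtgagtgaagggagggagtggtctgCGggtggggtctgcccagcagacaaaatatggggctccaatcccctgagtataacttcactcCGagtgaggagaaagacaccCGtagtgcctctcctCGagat

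The genes with the largest differences did not share a promoter type. Spint2 had 26 CpG in its window and F13a1 only 3 at the outer and 5 at the inner start, and Corin had 5. The median over 32851 RefSeq promoter windows was 7, with quartiles of 3 and 20. Spint2 thus stood above 83.1% of windows, Corin above 38.0%, and the F13a1 starts above 23.3% and 38.0%. Of the other promoters in the table, Spint1 had 28 CpG, Plaur 7, and F7 and F10 5 each, while Thbd and Plau were not looked at. Both Spint genes therefore had CpG counts above the upper quartile. Methylation was not measured in these libraries, and a link between CpG content and the differences was not tested.

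Motif matches in the same windows, on either strand, were few. TGANTCA, the AP-1 motif, matched at 69 bases before the start of Plaur and 6 bases before that of Spint1, and is present in 7.81% of all windows. GAGGAAGT, a form of the PU.1 motif, matched 15 bases after the inner start of F13a1 and is present in 3.20%. AGAACA, a half-site of the element bound by the glucocorticoid receptor, matched 102 bases before the start of F10 and is present in 19.0%. No window held more than 1 of the 3 motifs, and those of Spint2, Corin, F7 and the outer start of F13a1 held none.

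Among the clotting factors, F13a1 showed the largest difference of the 9 genes. F13a1 encodes the catalytic A subunit of factor XIII, which also cross-links matrix proteins such as fibronectin and is a known marker of alternatively activated macrophages. It had 135112 and 133152 counts in the siHells libraries and 3486 and 3130 in siControl. Its level was 2492 and 2482 CPM in siHells, against 63.4 and 62.5 CPM in siControl. The groups lay far apart and the libraries of a group close together, with a coefficient of variation of 0.306% in siHells and 0.981% in siControl. The log2 fold change was 5.30 (SE 0.031), a 39.5-fold higher level, and the 12th from the top of all genes tested. In siHells, 1 counted read in 412 and 1 in 413 came from F13a1, against 1 in 15348 and 1 in 15615 in siControl. The transcript made up 96.8% and 96.9% of the summed CPM of the 9 genes in siHells and 35.8% and 35.3% in siControl. Without it, the sum of the other 8 was 81.2 and 78.9 CPM in siHells, below the 113.5 and 114.8 CPM of siControl.

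F13a1 occupies chr13:36867178-37050244 (GRCm38, minus strand), and 2 antisense transcripts of GENCODE, Gm30489 and Gm49144, overlap it. Gm30489 overlaps its exons, and reads of the pair cannot be told apart without strand. No tested gene starts within 250 kb of F13a1. The nearest are Ly86, a partner of a Toll-like receptor homologue, which starts 295 kb upstream and rose by 0.80 on the log2 scale (SE 0.045, adjusted p = 4.71e-10), and Nrn1, 315 kb downstream, which was not called (log2FC -0.16, SE 0.35, adjusted p = 0.723).

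Platelets and their precursors also carry factor XIII A. Of 12 platelet and megakaryocyte markers listed, 10 were tested, of which 6 rose and 0 fell, beside 29.0% higher and 29.5% lower of all genes tested. The markers' median log2 fold change was 0.90, against -0.00 over all genes. Their summed level was 168.1 and 169.8 CPM in siHells and 56.7 and 52.9 CPM in siControl. Most of that was Pf4, a chemokine that macrophages express too, at 155 ± 1.47 CPM in siHells and 47.9 ± 2.63 CPM in siControl (SD, n = 2 each). Itga2b, the platelet integrin subunit, had 215 and 265 counts in siHells and 65 and 60 in siControl, a 3.73-fold rise (adjusted p = 8.33e-07). The glycoprotein genes Gp1ba and Gp5 rose 3.51-fold and 3.15-fold (adjusted p = 0.00307 and 0.00595), with 25 to 37 counts in siHells and 7 to 11 in siControl. Both passed the low-count filter through their siHells level. Ppbp rose by 1.02 and Treml1 by 0.59 on the log2 scale (adjusted p = 0.000295 and 0.0427). Gp5 lost its call without siHells replicate 1 (adjusted p = 0.0517), and Treml1 when any one of the 4 libraries was left out (adjusted p between 0.0930 and 0.124). Not called were Gp1bb, Gp6, Gp9 and Clec1b, with 5 to 69 counts in each library. Their log2 fold changes were 0.21, -0.04, 0.78 and -0.75 in that order, and Clec1b was near the threshold as lower (adjusted p = 0.0532). Tubb1 was not analysed here. Vwf, also known from megakaryocytes but not on this list, fell by 1.11 on the log2 scale (adjusted p = 7.18e-08). The part of platelet-lineage RNA in the F13a1 difference was not tested.

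F7 and F10 encode vitamin K-dependent serine proteases and lie next to each other on chromosome 8, both on the plus strand, F7 at chr8:13026034-13035809 and F10 at chr8:13037308-13056676 (GRCm38). F7, which starts the cascade together with tissue factor, had 236 and 211 counts in siHells and 131 and 97 in siControl. These stand for 4.35 and 3.93 CPM in siHells and 2.38 and 1.94 CPM in siControl. F10, the enzyme that makes thrombin, had 663 and 604 counts in siHells, or 12.2 and 11.3 CPM, against 423 and 393 counts, or 7.70 and 7.85 CPM, in siControl. Both genes were higher in siHells in every library, F7 by 0.93 on the log2 scale (SE 0.17) and F10 by 0.60 (SE 0.099). The difference of F7 rests on low counts, and the ratio of its summed counts to library totals was 1.81, with an exact binomial 95% interval of 1.54 to 2.14 that covers counting error only.

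Genes around F7 and F10 were called higher or not called. Of the other 5 genes tested within 250 kb of both, Lamp1, a lysosomal membrane protein, rose by 0.85 on the log2 scale (SE 0.024, adjusted p = 1.37e-13) and Pcid2 by 0.26 (SE 0.065, adjusted p = 0.00341). Mcf2l, Cul4a and Grtp1 were not called, with log2 fold changes of 0.04, 0.07 and 0.17. The transcripts of F7 and F10 start 11.3 kb apart.

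The remaining clotting factors were low and mostly uncalled. Of 15 further genes listed, 6 were tested, of which 0 rose and 1 fell. That gene was Vwf, the platelet-tethering factor known from endothelium and megakaryocytes, at 8.97 ± 0.669 CPM in siHells and 19.4 ± 1.68 CPM in siControl (SD, n = 2 each; log2FC -1.11, SE 0.094, adjusted p = 7.18e-08). F3, which encodes tissue factor, the partner of factor VII, had 15 and 37 counts in siHells and 22 and 30 in siControl (log2FC -0.04, SE 0.44, adjusted p = 0.947). F5, F8, F9 and Klkb1 had log2 fold changes between -0.37 and 0.29 with adjusted p-values between 0.453 and 0.941. The other 9, among them F2 for prothrombin and the fibrinogen genes Fga, Fgb and Fgg, were not analysed here. Of 8 hepatocyte markers only Apoa2 was tested, with 11 to 16 counts in each library.

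Factors VII and X are carboxylated in the endoplasmic reticulum before they can work, and this machinery was expressed in both groups. Of 7 genes listed for carboxylation, cleavage and secretion of clotting factors, 4 rose and 1 fell, by small amounts. Vkorc1, which recycles vitamin K, rose by 0.28 on the log2 scale (SE 0.060, adjusted p = 0.000951), Ggcx, the carboxylase, by 0.25 (SE 0.072, adjusted p = 0.00887) and Furin, a proprotein convertase, by 0.22 (SE 0.037, adjusted p = 9.76e-05). Lman1, a cargo receptor for factors V and VIII, fell by 0.19 (SE 0.044, adjusted p = 0.00151). Scaled by library totals in place of TMM, 2 rose and 2 fell, and Ggcx had an adjusted p = 0.0541. Without siControl replicate 2 none fell, and Lman1 had an adjusted p = 0.0581.

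Thbd, which encodes thrombomodulin, was higher in siHells. It had 1600 and 1666 counts in siHells and 592 and 571 in siControl, or 29.5 and 31.1 CPM in siHells against 10.8 and 11.4 CPM in siControl. Each siHells library lay above both siControl libraries by more than the spread within a group, and the log2 fold change was 1.45 (SE 0.075), a 2.73-fold higher level. Thbd occupies chr2:148404466-148408188 (GRCm38, minus strand). The only other gene tested within 250 kb is Cd93, which encodes a membrane lectin related to thrombomodulin and starts 35.4 kb upstream. Cd93 rose to 979 CPM in siHells, against 394 CPM in siControl, a log2FC of 1.31 (SE 0.028, adjusted p = 4.89e-15). Among 7 markers of endothelium, the cell type best known for thrombomodulin, 5 were tested and 0 called (Cldn5, with 2 or 3 counts a library, failed the low-count filter), and their summed level was 14.7 and 13.6 CPM in siHells and 13.2 and 12.7 CPM in siControl.

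Other genes that restrain clotting moved in both directions. Of 6 tested besides Thbd, 2 rose and 3 fell. Pros1, the protein S cofactor that also binds TAM receptors, rose to 56.8 ± 0.518 CPM in siHells against 38.3 ± 1.33 CPM in siControl (SD, n = 2 each; log2FC 0.57, SE 0.051, adjusted p = 1.29e-07). Procr, the receptor that presents protein C to thrombin and thrombomodulin, fell to 2.18 ± 0.233 CPM against 6.23 ± 0.449 CPM (log2FC -1.52, SE 0.15, adjusted p = 5.55e-07). Serpind1, the thrombin inhibitor heparin cofactor II, had 4 and 4 counts in siHells against 144 and 148 in siControl, and its log2FC was -5.19 (SE 0.39, adjusted p = 1.44e-08). In counts per library total, siControl stood 39.5 times above siHells, with an exact binomial 95% interval of 19.8 to 92.2 that covers counting error only. Serpind1 passed the low-count filter through its siControl level. Tfpi2, a Kunitz-type inhibitor, fell by 1.22 on the log2 scale (SE 0.28, adjusted p = 0.00162). Anxa5, the phospholipid-binding annexin, stood at 634 ± 13.1 CPM in siHells and 643 ± 2.71 CPM in siControl (adjusted p = 0.516, and 0.00698 as lower when scaled by library totals). Scaled by library totals, 1 of these genes rose and 4 fell, and 1 rose without siControl replicate 2 and without siHells replicate 2. F2r, the main thrombin receptor of the protease-activated family, fell to 4.37 ± 0.700 CPM against 10.6 ± 0.511 CPM (log2FC -1.28, SE 0.12, adjusted p = 3.30e-07), and F2rl2 was the only other receptor tested (adjusted p = 0.582). Without siHells replicate 2, both passed the threshold as lower.

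The urokinase pair was lower in siHells. Plau (chr14:20836660-20843385, plus strand), which encodes urokinase, had 758 and 685 counts in siHells against 1527 and 1438 in siControl, or 14.0 and 12.8 CPM against 27.8 and 28.7 CPM. Plaur (chr7:24462484-24475968, plus strand), its surface receptor, had 782 and 656 counts in siHells against 1047 and 1008 in siControl, or 14.4 and 12.2 CPM against 19.0 and 20.1 CPM. The groups did not overlap for either gene. The log2 fold change was -1.08 (SE 0.074) for Plau, 2.11-fold lower, and -0.55 (SE 0.088) for Plaur, 1.47-fold lower. Per kb of exon, the level of Plau was 1.07 and 1.15 times that of Plaur in siHells and 1.61 and 1.58 times in siControl. Exon length here and below is that of all annotated exons of a gene joined, so levels of different genes compare only roughly. None of the 12 tested genes within 250 kb of Plau had a larger log2 fold change in either direction. Around Plaur, 3 of 13 did, and they moved both ways. Kcnn4, a potassium channel gene, fell by 0.98 (SE 0.045, adjusted p = 4.11e-11). Zfp108 rose to 2.79 CPM in siHells against 1.39 CPM in siControl (adjusted p = 0.000726). Ethe1 rose by 0.59 on the log2 scale (SE 0.091, adjusted p = 5.004e-05). Of the 13 genes around Plaur, 3 were called higher and 1 lower.

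Of all genes tested, 58.5% were called, 29.5% lower and 29.0% higher in siHells. On the list of plasminogen activation and its receptors, all 7 further genes tested were called, 5 lower and 2 higher. Without siControl replicate 2, 3 were lower, and Plgrkt and Plat lost their calls (adjusted p = 0.0710 and 0.122). Anxa2, an annexin that binds plasminogen, fell to 481 ± 10.8 CPM in siHells against 908 ± 16.0 CPM in siControl (SD, n = 2 each; log2FC -0.92, SE 0.029, adjusted p = 4.85e-13). Eno1, a glycolytic enzyme that also serves as a plasminogen receptor, fell by 0.61 (SE 0.027, adjusted p = 2.57e-11). S100a10, the partner of Anxa2, Plgrkt and Plat fell by 0.20, 0.19 and 0.75 on the log2 scale. Plat, the tissue-type activator, was at under 1.5 CPM, and it also lost its call in the DESeq2 Wald test and without either siHells library. Lrp1, an endocytic receptor that clears plasminogen activators, rose by 0.72 (SE 0.027, adjusted p = 3.23e-12) and Mrc2, a collagen receptor that associates with Plaur, by 0.69 (SE 0.088, adjusted p = 6.52e-06). Plg, which encodes plasminogen, was not analysed here.

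On the list of inhibitors of plasminogen activation, 2 of 4 tested genes rose and 1 fell. Of those named here, Serpinb2 fell and Serpine2 rose. Serpinb2, an intracellular urokinase inhibitor of macrophages, had 231 and 168 counts in siHells and 662 and 625 in siControl, or 3.70 ± 0.799 CPM against 12.3 ± 0.315 CPM (SD, n = 2 each; log2FC -1.73, SE 0.13, adjusted p = 1.58e-08). Serpine2, a secreted inhibitor of thrombin and urokinase, stood at 39.8 ± 1.70 CPM in siHells and 31.5 ± 2.42 CPM in siControl (log2FC 0.34, SE 0.064, adjusted p = 0.000292).

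The related Kunitz-type inhibitors Spint1 and Spint2 differed from each other. Spint2 encodes a membrane inhibitor of hepsin, matriptase and other trypsin-like proteases. It had 131 and 103 counts in siHells against 2055 and 1789 in siControl, or 2.42 and 1.92 CPM against 37.4 and 35.8 CPM. The groups were an order of magnitude apart, with a log2 fold change of -4.07 (SE 0.10), 16.8-fold lower, the 13th from the bottom of all genes tested. Spint1 (chr2:119237362-119249527, plus strand) encodes an inhibitor of the same proteases and of hepatocyte growth factor activator. It had 223 and 284 counts in siHells and 206 and 200 in siControl, or 4.11 and 5.29 CPM against 3.75 and 4.0 CPM. Its lower siHells library lay close to siControl, and the log2 fold change was 0.28 (SE 0.16). With siHells replicate 1 left out it was 0.46 and Spint1 passed the threshold, and with replicate 2 left out it was 0.09. Per kb of exon, the level of Spint2 was 0.357 and 0.220 times that of Spint1 in siHells, and 6.06 and 5.43 times in siControl. By this measure their order was reversed between the groups, but the order within a group depends on the exon lengths taken.

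Spint2 occupies chr7:29256323-29281912 (GRCm38, minus strand). Of 13 tested genes within 250 kb, 5 rose, 5 fell and 3 were not called, and none had a log2 fold change as large as that of Spint2. The nearest tested gene, Ppp1r14a, starts 7.4 kb upstream and was not called (log2FC 0.68, SE 0.54, adjusted p = 0.295). Dpf1, 22.0 kb upstream, was not called either (log2FC 0.82, SE 0.58, adjusted p = 0.241). Downstream, the nearest tested gene, 2200002D01Rik, starts 33.4 kb away. It fell by 3.03 on the log2 scale (SE 0.31, adjusted p = 6.77e-07) at a low level, 0.287 CPM in siHells against 2.38 CPM in siControl. Farther on, Kcnk6, a potassium channel gene, rose by 1.04 (SE 0.042, adjusted p = 8.98e-12). Around Spint1, on chromosome 2, 2 of 11 tested genes rose and 4 fell. The plot of neighbouring genes by distance shows these values.

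**Figure D2:**
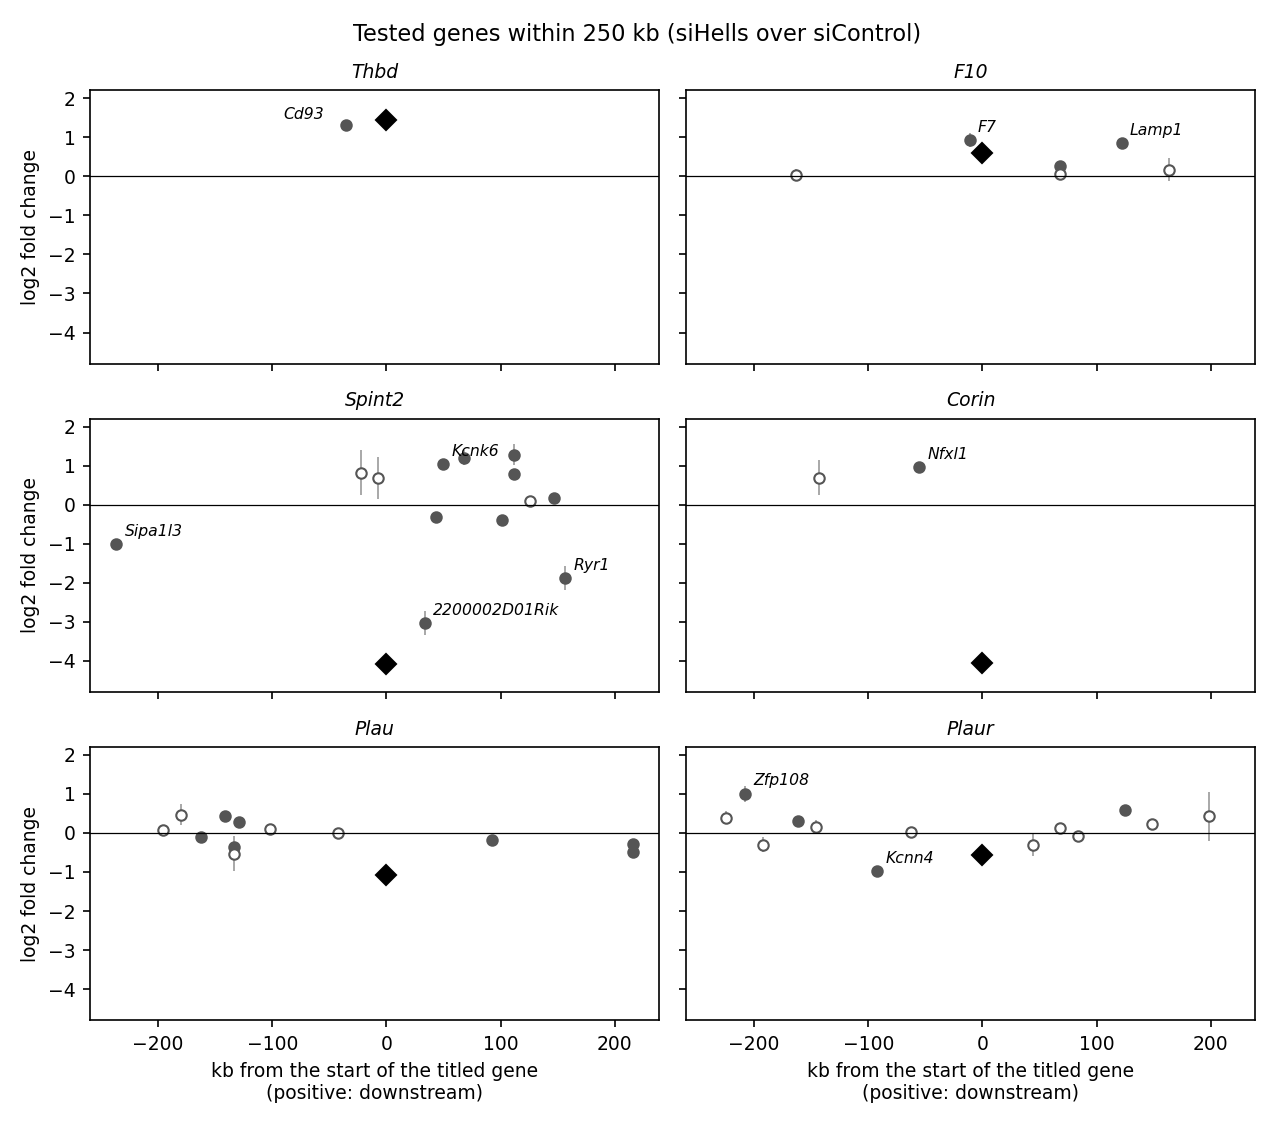
Log2 fold change (siHells over siControl) of the tested genes within 250 kb of 6 of the 9 genes, against distance in kb between starts (positive is downstream); diamonds mark the titled gene, filled circles called genes, open circles uncalled ones, and bars the SE. Cd93 lies beside Thbd at nearly the same value, Spint2 lies below all its neighbours with 2200002D01Rik closest in value, and Corin lies far below its neighbours.

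Epithelial cells are the usual site of both Spint genes. Of 7 epithelial markers listed, 2 were tested and they moved in opposite directions. Epcam, an epithelial adhesion molecule, had 7 and 10 counts in siHells against 104 and 94 in siControl (log2FC -3.56, SE 0.36, adjusted p = 4.64e-07). It passed the low-count filter through its siControl level. Krt19 rose by 2.36 (SE 0.36, adjusted p = 5.61e-05), and Cdh1, Krt8, Krt18, Cldn4 and Cldn7 were not analysed here. The tested markers summed to 1.64 and 2.89 CPM in siHells and 2.31 and 2.28 CPM in siControl, which pools their opposite moves. Their part in the Spint2 difference was not tested.

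Of 17 other genes tested from the list of serine protease inhibitors, 8 rose and 3 fell, and not all serpins on it need act as inhibitors. Serpinh1, a collagen chaperone of the serpin fold, rose by 1.09 on the log2 scale (SE 0.037, adjusted p = 1.30e-12), and Serpinf1 rose by 0.82 (SE 0.058, adjusted p = 8.65e-09). Stromal cells make both, and 6 of 7 stromal markers rose and 1 fell, with a summed level of 1795 and 1765 CPM in siHells and 997 and 1021 CPM in siControl. Their part in the Serpinh1 and Serpinf1 differences was not tested. App, whose longer forms carry a Kunitz domain, rose by 0.38 (SE 0.029, adjusted p = 1.99e-08). Serpinb8 fell by 0.56 (SE 0.042, adjusted p = 1.55e-08). Under scaling by library totals, 7 of this list rose and 5 fell. Reads of related serpin genes may be split among copies.

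Corin, a type II transmembrane serine protease, is best known in heart for activating the precursor of atrial natriuretic peptide. It had 9 and 22 counts in siHells against 258 and 247 in siControl, or 0.166 and 0.410 CPM against 4.69 and 4.94 CPM. The siHells libraries differed from each other more than 2-fold in level but lay far below both siControl libraries. The log2 fold change was -4.05 (SE 0.27), 16.6-fold lower, and the ratio of summed counts to library totals was 17.6-fold lower. Its exact binomial 95% interval of 12.2 to 26.2 covers counting error only and not the spread between libraries. Leaving out siHells replicate 1 gave a log2 fold change of -3.54, and leaving out replicate 2 gave -4.83. Corin passed the low-count filter through its siControl level. Corin occupies chr5:72300025-72504473 (GRCm38, minus strand), where the antisense transcript Gm20647 overlaps its exons. The nearest tested gene, Nfxl1, starts 55.2 kb upstream and rose by 0.96 (SE 0.046, adjusted p = 7.59e-11).

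Natriuretic peptide genes, the known substrates of Corin, were not analysed here. Of their receptors, Npr2 rose to 4.76 ± 0.306 CPM in siHells against 2.98 ± 0.516 CPM in siControl (SD, n = 2 each; log2FC 0.67, SE 0.16, adjusted p = 0.00210), and Npr1 had 12 to 22 counts in each library (adjusted p = 0.616).

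Membrane serine proteases and the receptors of the hepatocyte growth factor family, whose ligands Spint-sensitive proteases activate, also moved both ways, 3 higher and 3 lower of 8 tested. Mst1r, the receptor of macrophage-stimulating protein, fell to 4.69 ± 1.41 CPM in siHells against 44.0 ± 0.232 CPM in siControl (SD, n = 2 each; log2FC -3.23, SE 0.12, adjusted p = 1.77e-10). Met, the receptor of hepatocyte growth factor, fell to 21.2 ± 0.00330 CPM against 44.7 ± 2.14 CPM (log2FC -1.07, SE 0.061, adjusted p = 5.93e-10). Prss8, the protease prostasin, had 3 and 5 counts in siHells against 41 and 30 in siControl (adjusted p = 0.000104). It passed the low-count filter through its siControl level. Per library total, siControl stood 9.59 times above siHells, with an exact binomial 95% interval of 4.61 to 23.1 that covers counting error only. Tmprss4 rose by 1.63 (SE 0.19, adjusted p = 3.17e-06). St14, which encodes matriptase, and Hpn, which encodes hepsin, rose by 0.28 (adjusted p = 0.00529) and 0.68 (adjusted p = 0.00412, and 0.0501 without siControl replicate 1), and Hgf was not called (adjusted p = 0.153).

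Transglutaminase relatives and matrix substrates of factor XIII did not follow F13a1 as a group. Tgm2, the tissue transglutaminase, fell to 66.3 ± 2.49 CPM in siHells against 120 ± 3.05 CPM in siControl (SD, n = 2 each; log2FC -0.86, SE 0.043, adjusted p = 1.37e-10). Per kb of exon, the level of F13a1 was 369 and that of Tgm2 14.4 CPM in siHells, against 9.35 and 26.1 CPM in siControl. Of the substrates, Fn1 for fibronectin rose by 0.19 (SE 0.031, adjusted p = 5.74e-05), Thbs1 rose by 0.66 (SE 0.031, adjusted p = 7.29e-11), and Spp1 for osteopontin fell by 1.35 (SE 0.028, adjusted p = 3.68e-15). With Tgm1, which rose at under 4 CPM, 3 of the 5 tested were higher and 2 lower.

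Over all 10 pathway lists, 62 of 100 genes other than the 9 were tested, and 24 rose, 19 fell and 19 were not called. These are 38.7% higher and 30.6% lower, beside 29.0% and 29.5% of all genes tested. The median log2 fold change was 0.13, against -0.00 over all genes. By list, the medians were 0.46 for inhibitors of plasminogen activation, 0.22 each for factor carboxylation and for the serine protease inhibitors, 0.19 each for transglutaminases with matrix substrates and for natriuretic receptors, and -0.04 for clotting factors. They were -0.20 for plasminogen activation and its receptors, -0.43 for membrane proteases with the growth factor receptors, -0.62 for anticoagulants and -0.79 for the 2 protease-activated receptors. The plot of log2 fold changes by role places the 9 genes among called genes named here.

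**Figure D3:**
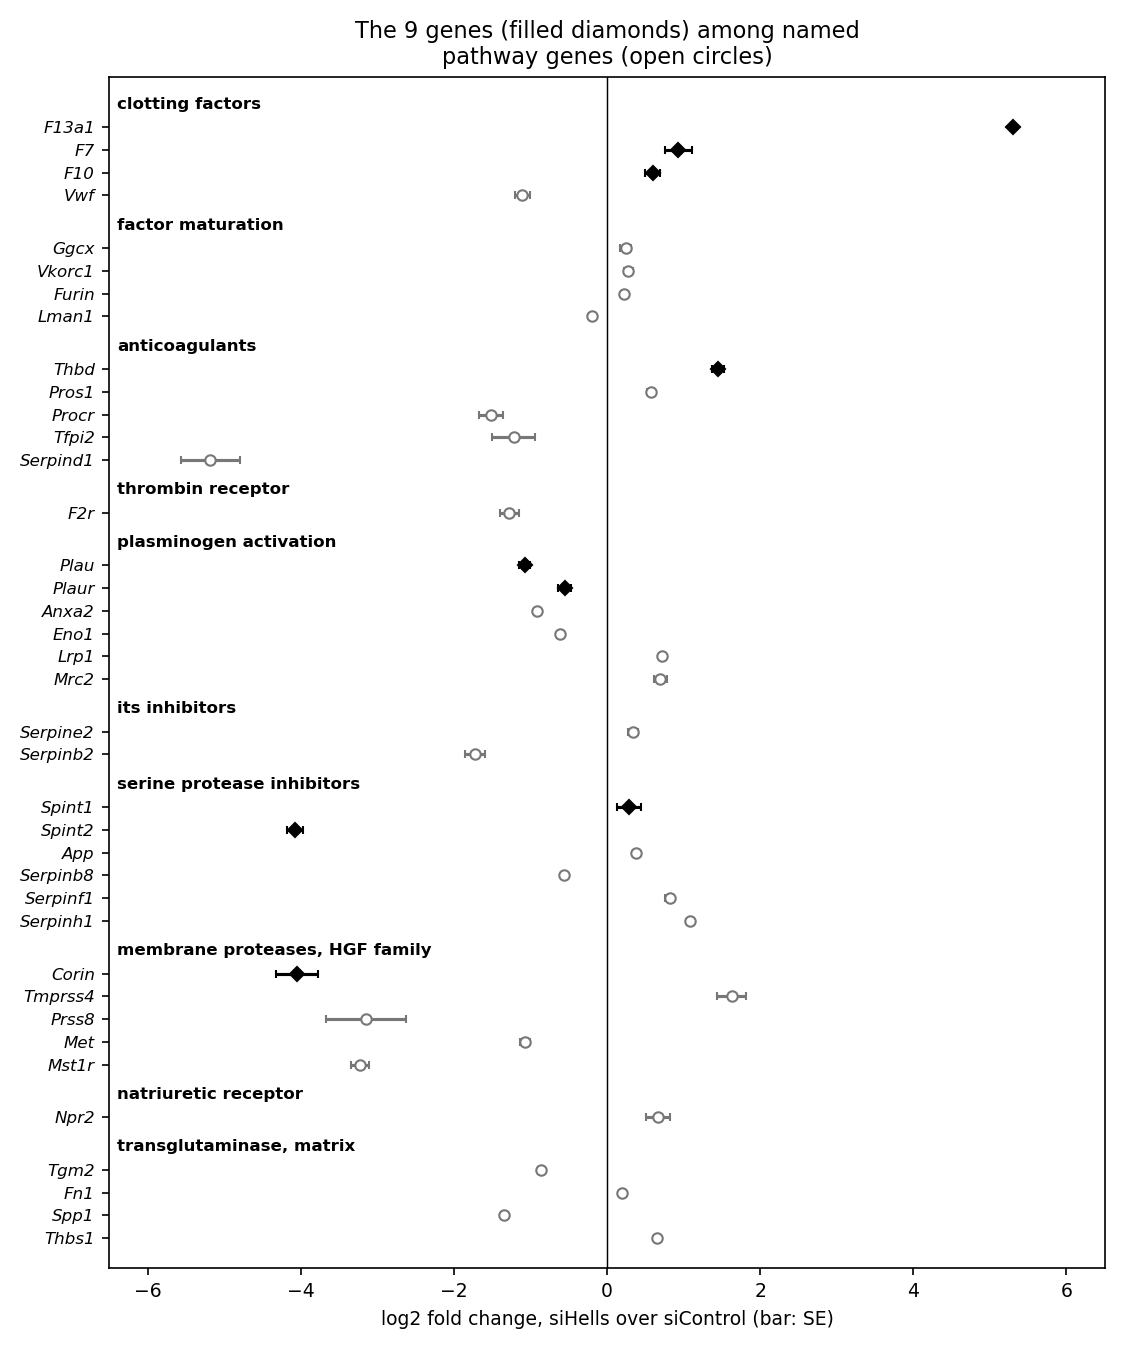
Log2 fold change (siHells over siControl) with its SE for the 9 genes (filled diamonds) and some called pathway genes named in the text (open circles), by role. Beyond the 9, genes that were not called are not drawn. F13a1 lies farthest to the right at 5.30, and Serpind1, Spint2 and Corin farthest to the left.

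Per kb of joined exon the 9 genes changed their order between the groups, though the order within a group depends on the exon lengths taken. In siHells the order of levels was F13a1 (369 ± 1.13 CPM per kb), Thbd (8.13 ± 0.292), Plau (5.65 ± 0.363), Plaur (5.09 ± 0.594), F10 (4.30 ± 0.252), F7 (2.23 ± 0.160), Spint1 (1.70 ± 0.301), Spint2 (0.476 ± 0.0771) and Corin (0.0533 ± 0.0320; SD, n = 2 each). Plau and Plaur overlapped there, and the gap between Plaur and F10 was about the size of their spread. In siControl the order was Plau (11.9 ± 0.285), F13a1 (9.35 ± 0.0917), Spint2 (8.03 ± 0.254), Plaur (7.49 ± 0.296), Thbd (2.98 ± 0.122), F10 (2.85 ± 0.0408), Spint1 (1.40 ± 0.0636), F7 (1.16 ± 0.169) and Corin (0.892 ± 0.0317; SD, n = 2 each). Thbd and F10 differed there by about their spread. F13a1 stood above 99.4% of the genes tested with a known length in siHells and above 66.8% in siControl, and Spint2 above 16.6% and 63.0%.

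**Figure D4:**
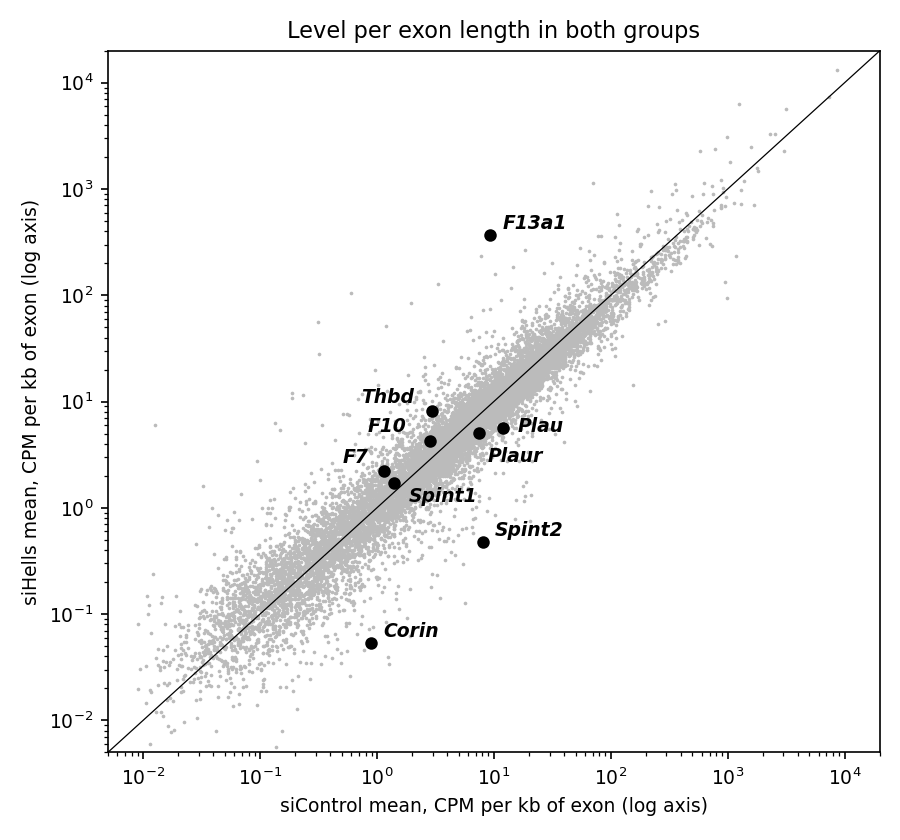
Mean CPM per kb of exon in siHells (vertical) against siControl (horizontal), both on log axes, for all genes tested with a known exon length (grey) and the 9 genes (black); the line marks equal levels. F13a1 stands far above the line, Spint2 and Corin far below it, and Spint1 close to it.

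Some genes had nearly the same pattern over the 4 libraries as F13a1 or Spint2, measured as the Euclidean distance of log2 CPM centred on each gene's mean. Among the 11126 genes whose mean log2 CPM reached 1, the nearest to F13a1 were Ddit4 (distance 0.093), Fkbp5 (0.136) and Vcam1 (0.140). Ddit4, an inhibitor of mTORC1, had 223 ± 2.37 CPM in siHells and 5.90 ± 0.295 CPM in siControl. Fkbp5, a co-chaperone of steroid receptors, had 800 ± 21.1 CPM in siHells and 18.5 ± 0.257 CPM in siControl. Nearest to Spint2 were Ciita (0.213), Siglec15 (0.285) and Itgax (0.336). Ciita, the transactivator of MHC class II genes, had 0.880 ± 0.190 CPM in siHells and 17.4 ± 0.262 CPM in siControl (SD, n = 2 for each value). With 2 groups of 2 libraries, such a distance mostly compares the size of the difference between the groups.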

How the data were processed

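Polyadenylated RNA was sequenced from 4 libraries. The table the authors deposited holds raw counts for each symbol, not normalized. Build mm10 and the tools HISAT2 2.1.0, StringTie 2.1.3b, Trimmomatic 0.38, FastQC and edgeR are listed, without their roles, per the submitters' processing notes. Neither the annotation nor the strand setting is given in the labels used here. A SMARTer kit and a stranded TruSeq kit are both named for every library, per the labels' protocols, so antisense overlaps are uncertain. The lowest count in the table was 1.

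Genes were kept by filterByExpr (minimum count 10, minimum total 15), which left 15651 of 17194, all 9 members included. A count of 10 stands for 0.180 to 0.205 CPM. Counts were scaled by TMM and tested with the edgeR 4.0.16 quasi-likelihood test (R 4.3.3, robust, group only, 2 residual degrees of freedom), with Benjamini-Hochberg adjustment across the 15651 genes. The SE is the log2 fold change divided by the root of the F statistic. Alternatives were DESeq2 size factors, library totals, no filter, DESeq2 1.42.0, a replicate block and each library left out.

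The members and lists were chosen with earlier results of these data known. Named are the 9 members, up to 4 called genes per list with the smallest p, and the 3 genes nearest in pattern to F13a1 and Spint2. Some genes of the lists are not reported here by name, though the counts over lists hold them. Other genes, neighbours within 250 kb included, were chosen after their values were seen. Exon lengths and positions are from GENCODE M21 (GRCm38), matching 93.2% of genes tested. The length joins all annotated exons of a gene and may exceed that of the transcript expressed. Promoters for 7 of the 9 are from RefSeq.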

Additional observations from a re-analysis of the deposited data

How the results depend on the processing

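None of the 9 genes changed direction under any alternative run, and the log2 fold change of F13a1 stayed between 5.23 and 5.31, that of Thbd between 1.38 and 1.5 and that of Spint2 between -4.25 and -3.92. Corin ranged from -4.83 to -3.54 and Spint1 from 0.09 to 0.46, each between the fits that leave out a siHells library. Over all genes, 4541 were higher and 4612 lower, against 3773 and 5508 when scaled by library totals, under which the median log2 fold change of all genes was -0.08. The DESeq2 Wald test called 4013 higher and 3911 lower. With the replicate number as a block, 4501 genes were higher and 4586 lower, and 25 and 20 of the wider pathway genes against 24 and 19 without it. Same-numbered libraries deviated together only weakly (correlation 0.05 over 15651 genes), so the numbers are not taken as pairs. Leaving out a library gave 22 to 24 wider pathway genes higher and 17 to 19 lower. Ggcx lost its call without siHells replicate 1 (adjusted p = 0.0715), beside the lost calls given above for Ggcx, Lman1, Plgrkt, Plat, Hpn, Gp5 and Treml1. Treml1 also lost it when scaled by library totals (adjusted p = 0.0716) and in the DESeq2 Wald test (0.158). Some log2 fold changes that were not called changed sign. When scaled by library totals, Mcf2l was at -0.037 and Cul4a at -0.0067. Leaving out a library gave a range of -0.83 to 0.48 for F3, -0.020 to 0.37 for F5, -0.19 to 0.65 for F8, -0.11 to 0.034 for Klkb1, -0.041 to 0.0019 for Anxa5 and -1.31 to 0.28 for F2rl2. For Npr1 the range was -0.65 to 0.081, for Nrn1 -0.42 to 0.067, for Mcf2l -0.15 to 0.27 and for Grtp1 -0.0097 to 0.34. With 2 libraries a group, small differences such as that of Spint1 are limited by the spread of the libraries and by low counts.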
